A study of Mus musculus with 22 samples.

Results

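The signalling genes Map3k5, Rapgef4 and Fam129b were described across all 22 mouse liver libraries, as 3 of the 45777 genes in the deposited count tables. They were chosen by their log2 fold changes in the HFD cohort, where HFD feeding and DTMB moved them in opposite directions, so their values in that cohort are given as a description, with no test. The rule of choice used no values of the MCD cohort, and the same measure was tested there. Earlier results of these data were known when the genes were chosen. Livers were from male C57BL/6J mice, labelled WT, in 2 cohorts that the labels also give as the batch. In the HFD cohort, 4 livers were from mice on a high-fat diet (HFD) that received DTMB, 4 from mice on HFD that received vehicle and 3 from mice on normal diet that received vehicle. In the MCD cohort, 3 livers were from mice on a methionine- and choline-deficient diet (MCD) with DTMB, 4 from mice on MCD with vehicle and 4 from mice on normal diet with vehicle. The labels give HFD as a fatty liver model and MCD as a steatohepatitis model. DTMB, a compound known here only by that name, was an oral treatment, dosed daily at 10 mg/kg. Age, length of feeding and housing were not given in the sources used here, and no group was given DTMB on normal diet.

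Map3k5 encodes ASK1, a kinase at the top of the stress-activated cascades. Reduced thioredoxin holds it inactive, and oxidative stress or tumour necrosis factor signalling releases it to activate the kinases upstream of JNK and p38. Rapgef4 encodes Epac2, an exchange factor that loads the small GTPases Rap1 and Rap2 with GTP when cyclic AMP binds it, a branch of cyclic AMP signalling that runs beside protein kinase A. Fam129b, which RefSeq now names Niban2, encodes a pleckstrin-homology protein that was found in human melanoma cells as a target of BRAF and ERK signalling and that localises to junctions between epithelial cells.

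The libraries held 50.1 to 66.7 M counts each, and the least abundant of the 3 genes, Fam129b, had 154 to 1796 counts per library. Hepatocyte markers such as Alb and Apoa1 were counted in every library, with none of the 10 at 0. Transcripts of pancreatic acinar cells (a list of 16 digestive enzyme genes) summed to over 100 CPM in 6 libraries, and to at most 25.2 CPM in the others. These 6 were normal-diet replicates 1 and 3, HFD vehicle replicates 1 and 4 and HFD DTMB replicate 3 of the HFD cohort, and normal-diet replicate 4 of the MCD cohort. In the HFD cohort, normal-diet replicate 1 also stood apart for adipose, mesothelial and muscle markers (178 CPM, against 2.76 to 22.7 CPM in the other 10 libraries) and HFD DTMB replicate 2 for erythroid markers (1824 CPM, against 352 to 814 CPM). CPM are counts over the library size in M, scaled by trimmed mean of M-values (TMM) in each cohort separately, which leaves the cohorts without a common scale. The labels call the replicates biological without saying more, and the tests take the spread between these samples as their error.

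Map3k5 (gene ID 26408) lies at chr10:19934101-20142750 on the plus strand of GRCm38.p6 (mm10), Rapgef4 (56508) at chr2:71981215-72257474 and Fam129b (227737) at chr2:32876134-32925253, both also on the plus strand. The GENCODE M21 annotation gives them 4, 3 and 2 protein-coding transcripts that begin at different bases. Promoter sequence from the RefSeq table of the same build is shown because Map3k5 and Rapgef4 changed in the same direction on HFD and Fam129b in the other. Capitals mark GC boxes (GGGCGG on either strand, overlapping matches joined), the only one of 8 motifs searched that was found in the window from 250 bases before to 50 bases after the start. The part before the start is printed, and for Map3k5 only its last 30 bases, since the window overlaps an annotated exon.
Map3k5, chr10:19934496-19934525: gcagctgcctagcccggcgcgcgcggagca
Rapgef4, chr2:71980965-71981214: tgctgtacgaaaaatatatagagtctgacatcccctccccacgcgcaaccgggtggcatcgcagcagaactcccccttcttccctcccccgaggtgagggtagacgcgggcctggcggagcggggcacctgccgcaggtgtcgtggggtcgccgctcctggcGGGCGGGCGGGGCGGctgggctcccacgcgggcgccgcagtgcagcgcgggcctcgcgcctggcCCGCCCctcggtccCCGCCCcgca
Fam129b, chr2:32875884-32876133: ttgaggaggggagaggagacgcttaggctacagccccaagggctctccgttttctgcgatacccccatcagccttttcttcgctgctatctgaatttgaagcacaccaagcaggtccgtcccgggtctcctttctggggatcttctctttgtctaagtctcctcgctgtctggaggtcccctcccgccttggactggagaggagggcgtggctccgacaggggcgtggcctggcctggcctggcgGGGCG
The 300-base windows held 2 GC boxes in Map3k5, 5 in Rapgef4 and 3 in Fam129b, where the first begins at the end of the printed stretch, and 35.7% of all 32851 promoters in the table held at least 1. Their GC content was 79.7% in Map3k5, 76.7% in Rapgef4 and 65.3% in Fam129b, against a median of 52.7% over all promoters. The Map3k5 window lies inside the gene span given above, past its first base. Its GC content and GC boxes therefore describe sequence within that span. The 5 boxes of Rapgef4 lie before its start, while the first box of Fam129b crosses the start and its others lie after it. Each GC content covers the whole 300-base window, with the 50 bases after the start. The motifs with no match in any of the 3 windows were the CCAAT box (CCAAT), the TATA box (TATAAA), the cyclic AMP response element (TGACGTCA), the AP-1 site (TGANTCA), the E-box (CACGTG), the STAT site (TTCNNNGAA) and the consensus NF-kB site. They were present in 37.4%, 13.6%, 1.79%, 7.81%, 7.15%, 8.3% and 0.155% of all promoters, in that order.

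On HFD, Map3k5 with vehicle stood at 49.7% and Rapgef4 at 48.0% of their normal-diet levels, and both were nearer to those levels with DTMB. Fam129b showed the opposite pattern, with 2.79-fold the normal-diet level in HFD vehicle livers. Map3k5 was counted at 41.6, 49.6, 45.4 and 47.7 CPM in HFD DTMB livers, at 26.7, 26.0, 30.3 and 25.4 CPM in HFD vehicle livers and at 53.2, 54.4 and 56.1 CPM in normal-diet livers. No value of one group fell within the range of another, and the order of the means was normal diet, HFD DTMB and HFD vehicle. The fitted log2 fold change was 0.77 ± 0.075 (SE) for DTMB against vehicle on HFD and -1.01 ± 0.080 for HFD vehicle against normal diet. It was -0.24 ± 0.080 for DTMB on HFD against normal diet, a level of 84.4% of that on normal diet.

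Rapgef4 had 142, 135, 114 and 158 CPM in HFD DTMB livers, 71.97, 85.5, 86.1 and 86.7 CPM in HFD vehicle livers and 171, 179 and 166 CPM in normal-diet livers. The 3 groups again did not overlap, with the same order as for Map3k5. The DTMB livers spread most, with a coefficient of variation of 13.2%, against 8.58% in vehicle livers and 3.93% in normal-diet livers. The log2 fold change was 0.73 ± 0.097 for DTMB against vehicle on HFD, -1.06 ± 0.10 for HFD vehicle against normal diet and -0.33 ± 0.10 for DTMB on HFD against normal diet.

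Fam129b had 5.39, 4.13, 4.66 and 3.76 CPM in HFD DTMB livers, 11.1, 9.08, 7.63 and 9.56 CPM in HFD vehicle livers and 3.45, 3.76 and 2.83 CPM in normal-diet livers. The vehicle livers were all above both other groups. DTMB and normal-diet livers met at their edges, so these neighbours in the order were not apart in every library. The log2 fold change was -1.06 ± 0.14 for DTMB against vehicle on HFD and 1.48 ± 0.16 for HFD vehicle against normal diet. DTMB on HFD was 0.42 ± 0.16 above normal diet.

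**Figure D1:**
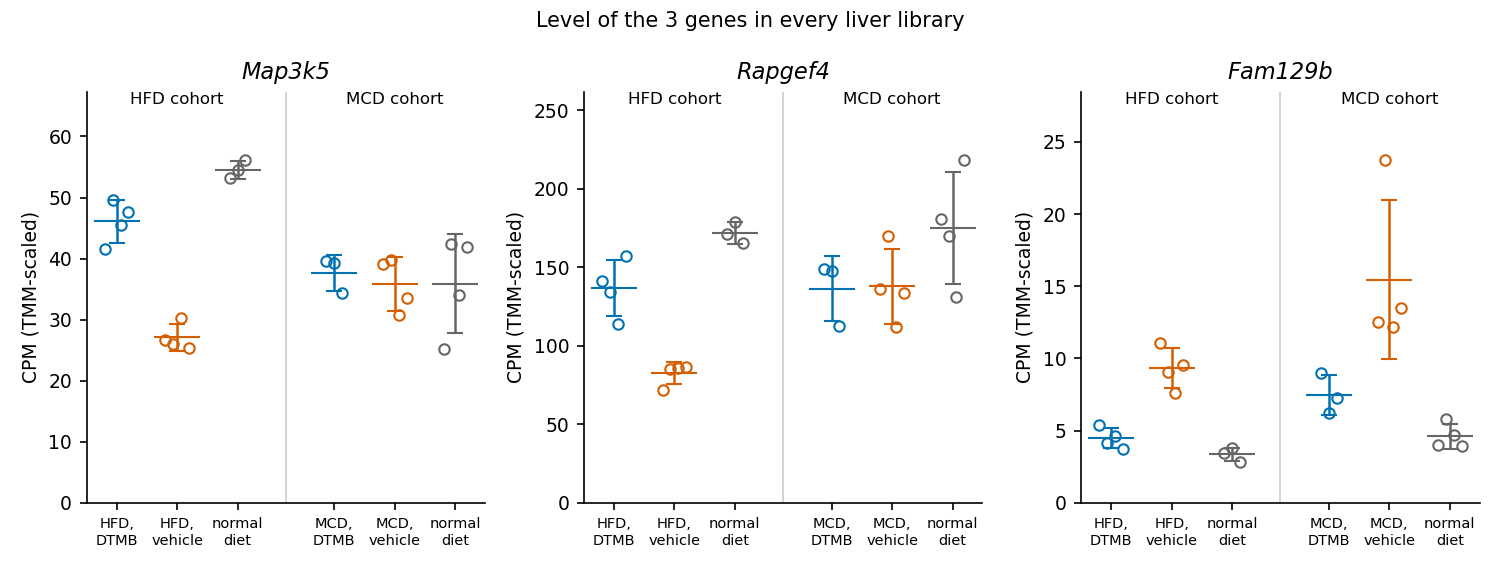
Level of Map3k5, Rapgef4 and Fam129b in each library, in CPM scaled by TMM within a cohort; circles are single livers, and bars are the group mean with its SD. In the HFD cohort the vehicle livers stand apart for all 3 genes (Map3k5 at most 30.3 CPM, against at least 41.6 CPM with DTMB), while in the MCD cohort they do so for Fam129b alone.

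Of all genes tested in the HFD cohort, 12.7% were called for DTMB against vehicle (6.64% higher and 6.04% lower) and 27.8% for HFD vehicle against normal diet, and the libraries of the groups did not overlap for 19.8% and 36% of genes in these comparisons. For DTMB on HFD against normal diet 29.2% were called, and 35.4% did not overlap. In all, 697 of the 15597 genes tested were called in opposite directions by HFD and by DTMB. Both comparisons use the same HFD vehicle livers, as the tested group in one and the reference in the other. An offset in those livers alone would therefore give opposite directions, and its part in the 697 was not tested. The number of genes called in the same direction is not given here. Ranked among these genes by the larger of the 2 p-values, Map3k5 was number 1, Rapgef4 number 5 and Fam129b number 6. These ranks come from the same comparisons by which the genes were chosen. They describe the choice and are no test of it. The choice had no numeric threshold. The gene just before Fam129b and Rapgef4 in that order was Wwtr1, which encodes the coactivator TAZ, with log2 fold changes of -0.72 for DTMB and 0.74 for HFD vehicle. The gene just after Fam129b was Endod1, with -0.89 for DTMB and 0.96 for HFD vehicle.

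Without the 5 HFD-cohort libraries that carried acinar transcripts, 3 DTMB, 2 vehicle and 1 normal-diet library were left. Map3k5 then had a log2 fold change of 0.72 ± 0.11 for DTMB against vehicle and -0.96 ± 0.14 for HFD vehicle against normal diet. Rapgef4 had 0.75 ± 0.10 and -1.07 ± 0.13 in the same comparisons. Fam129b had -0.92 ± 0.18 and 1.14 ± 0.26, the second of which is smaller than the value over all libraries by more than the spread between replicates. These fits assume that the lone normal-diet library varied like the other groups. Without HFD DTMB replicate 2, the liver with the most erythroid transcripts, the value for DTMB against vehicle was 0.72 ± 0.080 for Map3k5, 0.73 ± 0.11 for Rapgef4 and -1.03 ± 0.16 for Fam129b.

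In the MCD cohort, Fam129b rose in vehicle livers and stood lower in every DTMB liver than in any vehicle liver, a difference that did not pass adjustment, while neither Map3k5 nor Rapgef4 was called in any MCD comparison. Fam129b had 8.98, 6.22 and 7.23 CPM in MCD DTMB livers, 12.5, 23.7, 12.2 and 13.5 CPM in MCD vehicle livers and 4.03, 5.82, 4.67 and 3.91 CPM in normal-diet livers. The 3 groups did not overlap, with MCD vehicle highest and normal diet lowest. By edgeR's quasi-likelihood test with Benjamini-Hochberg adjustment over 16037 genes, Fam129b rose 3.36-fold in MCD vehicle livers against normal diet (log2 fold change 1.75 ± 0.23, adjusted p = 0.000145, higher in 4 of 4 livers). It was the only one of the 3 genes called in that comparison, in which 41.3% of all genes were called (20.3% higher) and 37.7% did not overlap between groups.

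DTMB livers had 48.3% of the Fam129b level of vehicle livers on MCD (log2 fold change -1.05 ± 0.25, lower in 3 of 3 livers, unadjusted p = 0.00124), a fitted size close to the -1.06 on HFD. The edgeR quasi-likelihood test did not call it (adjusted p = 0.919), although it ranked 15 of 16037 genes by p. In that comparison 0.00624% of genes were called, which is 1 gene (LOC108168464), while 857 genes had an unadjusted p under 0.05 and DESeq2 called 14. The groups did not overlap for 5.86% of all genes. Over the other settings the adjusted p for Fam129b ran from 0.0659 with DESeq2 to 0.961, and leaving out MCD vehicle replicate 2, the liver with 23.7 CPM, gave -0.77 (edgeR adjusted p = 1.00).

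Fam129b in MCD DTMB livers stayed above normal diet by a log2 fold change of 0.70 ± 0.25 (edgeR quasi-likelihood adjusted p = 0.0469, higher in 3 of 3 livers), in a comparison in which 32.6% of genes were called and 44.1% did not overlap. This call was lost in 6 of 7 fits that left out 1 library, with adjusted p-values of up to 0.177. It held only without normal-diet replicate 2. It was also lost without normal-diet replicate 4, the library with acinar transcripts (0.63 ± 0.27, adjusted p = 0.105).

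Map3k5 was counted at 39.5, 39.2 and 34.3 CPM in MCD DTMB livers, at 39.2, 39.8, 30.7 and 33.6 CPM in MCD vehicle livers and at 25.3, 42.4, 34.0 and 41.9 CPM in normal-diet livers. All 3 groups overlapped, and the normal-diet livers spanned the widest range. Means were 37.7 ± 2.96, 35.8 ± 4.39 and 35.9 ± 8.09 CPM (SD, n = 3, 4 and 4) in DTMB, vehicle and normal-diet livers, so no neighbours in their order differed beyond their spread. The log2 fold change was 0.072 ± 0.17 for DTMB against vehicle on MCD (edgeR quasi-likelihood adjusted p = 0.976), with an interval of 1.96 SE from -0.26 to 0.40. For MCD vehicle against normal diet it was -0.0018 ± 0.16 (adjusted p = 0.994 by the same edgeR test), with an interval from -0.31 to 0.30. Its sign turned under 9 of 10 other settings.

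Rapgef4 had 149, 148 and 113 CPM in MCD DTMB livers, 136, 170, 112 and 133 CPM in MCD vehicle livers and 181, 170, 131 and 218 CPM in normal-diet livers. DTMB and vehicle livers covered nearly the same range, and normal-diet livers reached above both while overlapping them. The log2 fold change was -0.016 ± 0.18 for DTMB against vehicle on MCD (edgeR quasi-likelihood adjusted p = 0.996), with an interval from -0.37 to 0.34. It was -0.34 ± 0.17 for MCD vehicle against normal diet, which the edgeR test did not call (adjusted p = 0.122). Without normal-diet replicate 3, the lowest of its group, it was -0.46 and was called by the same edgeR test (adjusted p = 0.0458). In MCD DTMB livers Rapgef4 was -0.36 ± 0.18 from normal diet, and Map3k5 0.071 ± 0.17, neither called by edgeR (adjusted p = 0.154 and 0.785).

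With 1 gene called for DTMB on MCD, a count of genes called in opposite directions by MCD and DTMB cannot be set beside the 697 on HFD. Whether the 3 genes responded differently in the 2 cohorts was not tested, because their HFD values had chosen them, and diet cannot be told apart from cohort. The normal-diet livers themselves stood at different Map3k5 levels, from 25.3 to 42.4 CPM in the MCD cohort and from 53.2 to 56.1 CPM in the HFD cohort. Without TMM factors these ranges were 22.6 to 34.1 CPM and 50.5 to 55.8 CPM.

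The scaling bears on the MCD values of Map3k5 and Rapgef4. TMM factors were 1.065 to 1.081 in MCD DTMB, 1.029 to 1.211 in MCD vehicle and 0.785 to 0.894 in normal-diet livers of that cohort. Scaling by library size alone moved the median log2 fold change of all genes to 0.47 for MCD vehicle against normal diet, from 0.0039 with TMM. Map3k5 then stood at 0.48 ± 0.15 and was called higher by edgeR (adjusted p = 0.0157), which is at the shifted median of all genes. Rapgef4 stood at 0.13 ± 0.17, below that median. Fam129b stood at 2.23, above it by about as much as with TMM. For HFD vehicle against normal diet the median moved to 0.14 and for DTMB against vehicle on HFD to -0.17, and all 3 genes kept their directions in the HFD cohort.

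**Figure D2:**
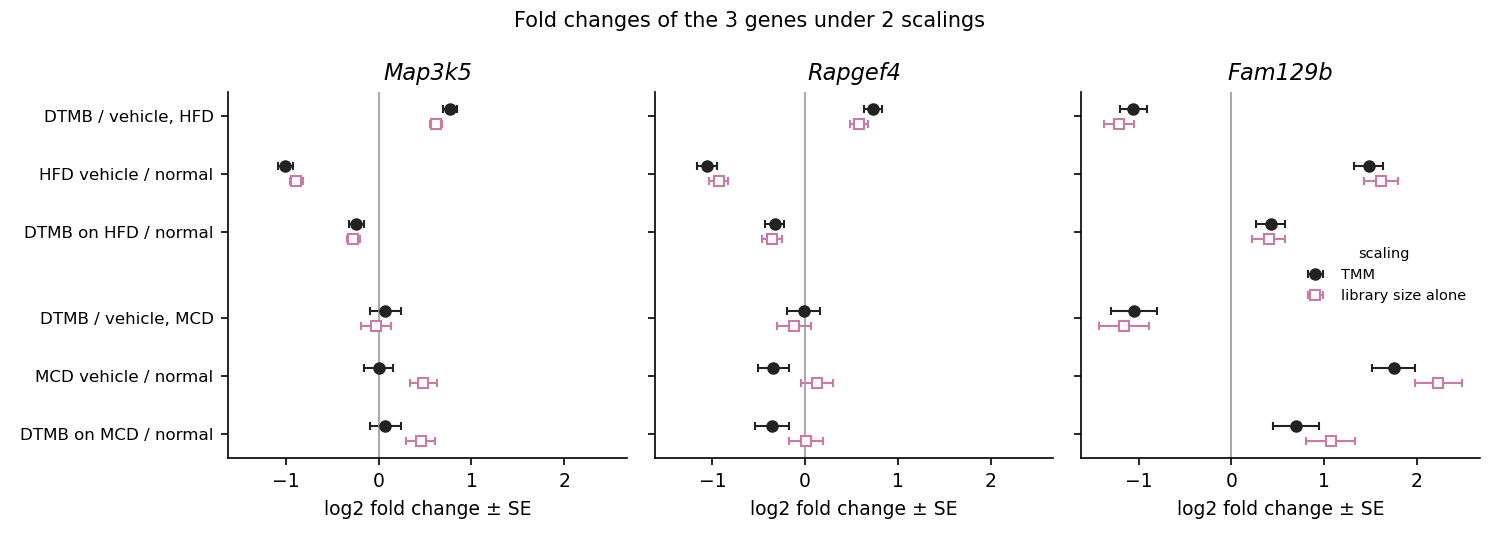
Log2 fold change with its SE for each gene and comparison, with TMM factors (filled circles) and with library size alone (open squares). Map3k5 in MCD vehicle livers against normal diet sits at 0.00 with TMM and at 0.48 with library size alone, while the HFD values and those of Fam129b keep their side of 0 under both.

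Per kilobase of annotated exon, Rapgef4 was the most abundant of the 3 in every group and Fam129b the least. In HFD DTMB, HFD vehicle and normal-diet livers of the HFD cohort the mean level was 20.5, 12.4 and 25.8 CPM per kb for Rapgef4, and 7.57, 4.45 and 8.97 CPM per kb for Map3k5. Fam129b had 0.960, 2.00 and 0.717 CPM per kb in the same groups, and reached its highest mean, 3.31 CPM per kb, in MCD vehicle livers.

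Within groups, livers with more of one gene did not reliably have more of another. After the group means were removed, Map3k5 and Rapgef4 gave Pearson r = 0.371 (permutation p = 0.285, adjusted over the 3 pairs 0.691) and Spearman rho = 0.399 (permutation p = 0.143) over 22 livers. Without the 2 livers farthest from the median in Map3k5, r was 0.638. Pearson r was 0.169 for Map3k5 and Fam129b (permutation p = 0.543, rho = 0.037, permutation p = 0.892) and 0.112 for Rapgef4 and Fam129b (permutation p = 0.691, rho = 0.021, permutation p = 0.938). Within the cohorts, Map3k5 and Rapgef4 gave 0.063 in the 11 HFD-cohort livers and 0.442 in the 11 MCD-cohort livers. Map3k5 and Fam129b gave -0.753 in the HFD cohort (permutation p = 0.0235, adjusted 0.0705), which did not pass adjustment, and 0.403 in the MCD cohort.

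The genes whose pattern was most like each of the 3 were found by Pearson r over all 22 libraries, centred by cohort, among 11352 genes, as a description. The closest to Map3k5 were Igfbp2, a liver-secreted binding protein for insulin-like growth factors (r = 0.867), Osbpl1a, an oxysterol-binding protein family member (0.796), and Rapgef4 itself (0.790). The likeness of Map3k5 and Rapgef4 came to 0.946 in the HFD cohort, where both were chosen, and to 0.259 in the MCD cohort. Igfbp2 gave 0.934 and 0.589 with Map3k5 in these cohorts. On HFD, Igfbp2 had 337 CPM with DTMB, 183 CPM with vehicle and 533 CPM on normal diet, and on MCD it had 975 CPM with DTMB, 746 CPM with vehicle and 587 CPM on normal diet.

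For Rapgef4 the nearest gene was Gfra1, a receptor for the growth factor GDNF (r = 0.840), followed by Map3k5 and by Ebna1bp2, a nucleolar protein (0.781). Gfra1 kept a likeness of 0.724 in the MCD cohort, with 154 CPM in MCD DTMB livers, 154 CPM in MCD vehicle livers and 224 CPM in normal-diet livers. The nearest to Fam129b were Gnai2, an inhibitory G protein subunit (0.917), Plekha2, a phosphoinositide-binding adaptor (0.909), and Itm2c, a membrane protein (0.908). Each of these 3 had an r of at least 0.831 with Fam129b in both cohorts. The libraries share the group differences, so these values describe the pattern over groups as much as that over single livers.

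Paralogues did not follow the members throughout. Map3k6, which encodes ASK2, rose in MCD vehicle livers to 2.67 ± 1.26 CPM, against 0.758 ± 0.092 CPM on normal diet (SD, n = 4 each; log2 fold change 1.82 ± 0.30, edgeR quasi-likelihood adjusted p = 0.000545). It remained higher in MCD DTMB livers (1.29 ± 0.31 against normal diet, adjusted p = 0.00834 by the same edgeR test). Map3k15, the third ASK kinase, was not called in any comparison, with group means of 0.555 to 1.96 CPM. On HFD neither kinase was called for DTMB, with log2 fold changes of 0.24 ± 0.36 for Map3k6 and -0.14 ± 0.19 for Map3k15.

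Rapgef3 encodes Epac1, the other cyclic AMP-activated Rap exchange factor, and had group means of 1.19 to 1.97 CPM. On HFD its log2 fold change was 0.12 ± 0.25 for DTMB against vehicle (edgeR quasi-likelihood adjusted p = 0.773) and -0.71 ± 0.27 for HFD vehicle against normal diet, where all vehicle livers were lower (adjusted p = 0.0654 by the same edgeR test). With MCD vehicle it was 0.58 ± 0.23 above normal diet, with all vehicle livers higher and again no call by edgeR (adjusted p = 0.0599). Both diet values were called under some of the other settings, on HFD by DESeq2 and with the replicate block.

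Fam129a, the first-named Niban gene, induced by endoplasmic reticulum stress, had the largest change among the paralogues. It had 19.3, 21.6 and 27.4 CPM in MCD DTMB livers, 38.8, 41.8, 33.1 and 24.0 CPM in MCD vehicle livers and 1.35, 4.31, 2.05 and 1.64 CPM in normal-diet livers. Vehicle livers on MCD were 3.89 ± 0.34 above normal diet on the log2 scale and DTMB livers 3.29 ± 0.34 (edgeR quasi-likelihood adjusted p = 6.72e-06 and 3.47e-05). DTMB against vehicle on MCD gave -0.60 ± 0.32, not called by edgeR (adjusted p = 0.923). On HFD, Fam129a had 2.44 ± 0.954 CPM with DTMB, 4.98 ± 1.95 CPM with vehicle (SD, n = 4 each) and 2.37 ± 1.00 CPM on normal diet (SD, n = 3), differences that edgeR did not call (adjusted p = 0.0823 for DTMB and 0.0653 for HFD vehicle) and DESeq2 did. Fam129c had at most 20 counts in any library and was not called where it was tested.

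Lrsam1, a ubiquitin ligase gene on the other strand, overlaps the 3′ end of Fam129b by 39 bases. It had 8.23 ± 0.731 CPM in MCD DTMB livers, 7.89 ± 1.19 CPM in MCD vehicle livers and 11.99 ± 1.70 CPM in normal-diet livers, the opposite order to Fam129b. On HFD its means of 10.8, 13.5 and 9.20 CPM with DTMB, with vehicle and on normal diet ran in the order of Fam129b. GENCODE also places the antisense genes Rapgef4os1, Rapgef4os2 and Rapgef4os3 within the span of Rapgef4. The library kit keeps strand, but whether counting used it is not given in the sources used here, so a share of Rapgef4 or Fam129b counts from the other strand was not tested.

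Recruited macrophage and stellate markers had members called in the directions of Fam129b on HFD and with MCD vehicle, while cholangiocyte and endothelial markers had few calls. Other lists did so in part. Of 11 Kupffer and macrophage markers, 4 were higher with HFD vehicle and 3 with MCD vehicle, and none was lower. These are 36.4% and 27.3% of the list, beside 15.2% and 20.3% of all genes called higher. None was called for DTMB against vehicle, where 12.7% (HFD) and 0.00624% (MCD) of all genes were. Of neutrophil markers, 4 of 5 tested were higher with MCD vehicle and 0 of 3 with HFD vehicle, beside 20.3% and 15.2% of all genes. Of 10 T, B and NK cell markers, 2 were higher with HFD vehicle and 1 lower with DTMB on HFD, and 3 rose and 3 fell with MCD vehicle. The shares called were 20%, 10% and 60%, beside 27.8%, 12.7% and 41.3% of all genes. In bulk tissue, more cells of a type and more RNA per cell cannot be told apart. The list of recruited and lipid-associated macrophage markers (10 genes, among them Trem2, Gpnmb and Ccr2) summed to 15.2 to 20.2 CPM in HFD DTMB, 22.9 to 47.6 CPM in HFD vehicle and 23.9 to 27.9 CPM in normal-diet livers. On MCD it summed to 113 to 330 CPM with DTMB, 265 to 740 CPM with vehicle and 18.8 to 37.2 CPM on normal diet. Of its 10 genes, 6 were called lower and none higher for DTMB against vehicle on HFD, and 8 were called higher and 1 lower for HFD vehicle against normal diet, beside 6.04% of all genes lower and 15.2% higher. Without the acinar libraries, with 1 normal-diet library left, no call of any gene remained for DTMB against vehicle on HFD. That fit cannot decide for a single list, in that comparison or for HFD vehicle. On MCD, 8 of the 10 were called higher with vehicle, beside 20.3% of all genes, and none for DTMB, where 0.00624% of all genes were called. The MCD vehicle liver with the most Fam129b, replicate 2 with 23.7 CPM, was also the highest of all 22 for this list (740 CPM), for stellate and fibroblast markers (763 CPM) and for cholangiocyte markers (173 CPM). It was the highest as well for immediate-early genes (495 CPM) and neutrophil markers (6.40 CPM).

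Stellate and fibroblast markers (11 genes) summed to 375 to 419 CPM in MCD DTMB, 440 to 763 CPM in MCD vehicle and 172 to 394 CPM in normal-diet livers. Of the 11, 6 were called higher with MCD vehicle, beside 20.3% of all genes. None was called for DTMB on MCD, where 0.00624% of all genes were. On HFD they summed to 242 to 293 CPM with DTMB, 285 to 435 CPM with vehicle and 261 to 288 CPM on normal diet. Of the 11, 4 were called lower for DTMB against vehicle and 4 higher for HFD vehicle against normal diet. Beside these stood 6.04% of all genes lower and 15.2% higher. The fit without the acinar libraries cannot decide for this list, since no call of any gene remained there for DTMB against vehicle. Cholangiocyte markers (10 genes) summed to 48.8 to 63.4 CPM in MCD DTMB, 64.4 to 173 CPM in MCD vehicle and 56.3 to 88.7 CPM in normal-diet livers. Normal-diet livers overlapped both other groups, while every MCD DTMB liver lay below every MCD vehicle liver. The list median for DTMB against vehicle on MCD was -0.98 on the log2 scale, beside -0.35 for stellate markers and 0.017 over all genes. No cholangiocyte marker was called for DTMB against vehicle in either cohort, where 12.7% (HFD) and 0.00624% (MCD) of all genes were. With HFD vehicle 1 was higher and 2 lower, and with MCD vehicle 1 was higher and 1 lower. The shares called were 30% and 20%, beside 27.8% and 41.3% of all genes. Of 10 endothelial markers, 1 was lower for DTMB against vehicle on HFD, 1 lower with HFD vehicle, and 2 higher and 1 lower with MCD vehicle. These are 10%, 10% and 30% of the list, beside 12.7%, 27.8% and 41.3% of all genes.

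Of 10 hepatocyte markers, 5 were called higher and none lower for DTMB against vehicle on HFD, 2 higher and 2 lower for HFD vehicle against normal diet, and none higher and 4 lower for MCD vehicle against normal diet. These are 50%, 40% and 40% of the list, beside 12.7%, 27.8% and 41.3% of all genes. Leaving out the acinar libraries cannot decide for these markers, since no call of any gene then remained for DTMB against vehicle on HFD. Of 13 immediate-early genes, which respond within minutes to stress or handling, 1 was higher and 3 lower for DTMB against vehicle on HFD, 6 higher with HFD vehicle and 7 higher with MCD vehicle, each against normal diet, and none was lower in these diet comparisons. The shares called were 30.8%, 46.2% and 53.8%, beside the same 12.7%, 27.8% and 41.3%. Of 13 mitochondrially encoded transcripts, 3 were lower with HFD vehicle and 11 with MCD vehicle, with none called for DTMB against vehicle on either diet. The diet shares were 23.1% and 84.6%, beside 12.6% and 21% of all genes called lower. Erythroid markers were called higher in 2 of 7 for DTMB against vehicle on HFD, 28.6% of the list beside 6.64% of all genes. These markers were called higher in 6 of 7 for DTMB on HFD against normal diet, beside 15.7% of all genes. They were lower in 5 of 5 tested for MCD vehicle and for DTMB on MCD against normal diet, beside 21% and 16.4%. The part of these cells and of these signs of handling and RNA quality in the values of the 3 genes was not tested.

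**Figure D3:**
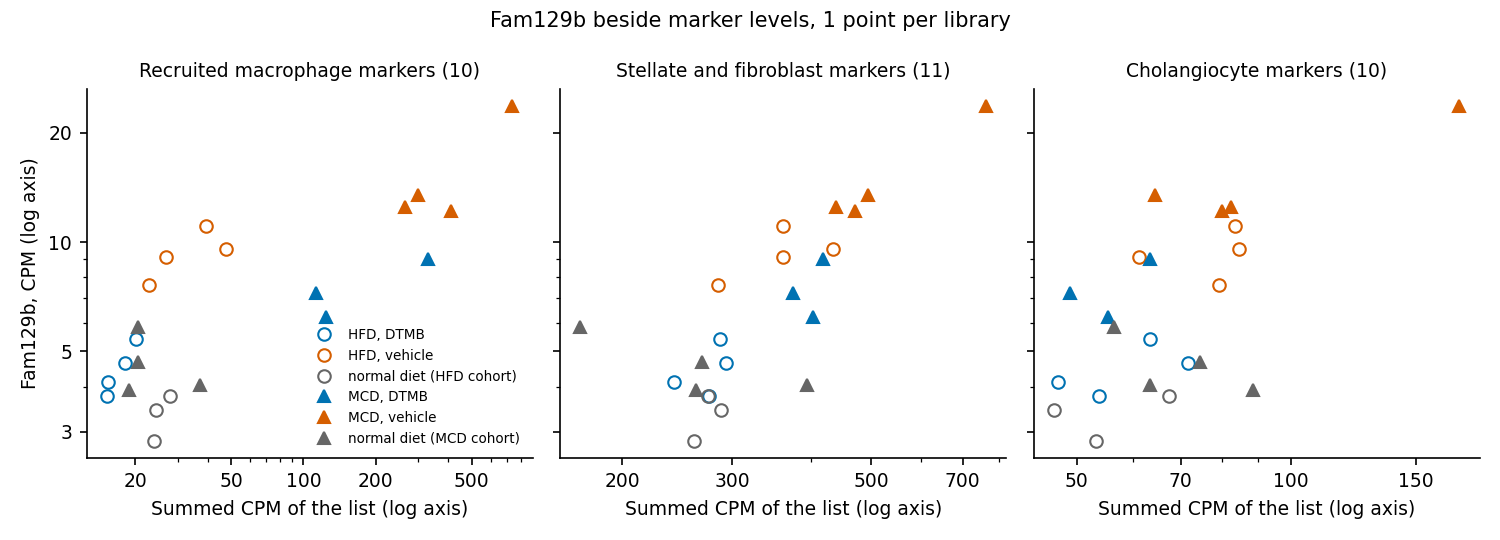
Fam129b in each library against the summed CPM of 3 marker lists, on log axes; open circles are the HFD cohort and filled triangles the MCD cohort, and each point is 1 liver. MCD vehicle replicate 2, with 23.7 CPM of Fam129b, is the highest point for all 3 lists.

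Of 42 tested regulators of ASK1 (thioredoxins, glutathione transferases, 14-3-3 proteins, tumour necrosis factor signalling), 1 rose and 5 fell for DTMB against vehicle on HFD, and 6 rose and 6 fell for HFD vehicle against normal diet, with list medians of 0.0024 and -0.039 on the log2 scale beside -0.015 and 0.015 over all genes. The shares called, 14.3% for DTMB and 28.6% for HFD vehicle, were near the 12.7% and 27.8% of all genes. Tnfaip3, which encodes the ubiquitin-editing enzyme A20, had 2.46 ± 0.666 CPM with DTMB and 6.07 ± 1.06 CPM with vehicle on HFD (SD, n = 4 each; log2 fold change -1.31 ± 0.20, edgeR quasi-likelihood adjusted p = 0.00874). Gstp1, a glutathione transferase that binds stress kinases, was at 314 ± 48.9 CPM with HFD vehicle, against 861 ± 261 CPM on normal diet (SD, n = 4 and 3; -1.45 ± 0.18, edgeR adjusted p = 0.000161). Txn2, the mitochondrial thioredoxin, was the 1 that rose with DTMB on HFD (0.40 ± 0.079, edgeR adjusted p = 0.0131).

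In the MCD cohort 11 of the 42 rose and 9 fell with MCD vehicle, which is 47.6% beside 41.3% of all genes, and none was called for DTMB. Tnfaip3 was higher with MCD vehicle (1.90 ± 0.25, edgeR quasi-likelihood adjusted p = 0.000125) and Gstp1 lower (-2.18 ± 0.15, adjusted p = 1.35e-06 by the same edgeR test), as on HFD. With library size alone 25 rose and 2 fell on MCD, following the shift of all genes.

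Kinases and transcription factors of the JNK and p38 cascades, the pathway that ASK1 feeds, had 42 members tested, of which 1 rose and 3 fell for DTMB against vehicle on HFD, and 7 rose and 6 fell for HFD vehicle against normal diet. These are 9.52% and 31% of the list, beside 12.7% and 27.8% of all genes. Map2k6, the p38-activating kinase MKK6, had 7.11 ± 2.53 CPM with DTMB and 3.52 ± 0.917 CPM with vehicle on HFD (SD, n = 4 each; 1.02 ± 0.27, edgeR quasi-likelihood adjusted p = 0.0334). That call was lost without HFD vehicle replicate 1 or 2 or HFD DTMB replicate 2, 3 or 4, with a log2 fold change of at least 0.74 in all 8 such fits and an edgeR adjusted p of up to 0.0952. Mapk8, which encodes JNK1, was lower with HFD vehicle (-0.55 ± 0.095, edgeR adjusted p = 0.00146), and Map3k20, the stress kinase ZAK, was higher (0.92 ± 0.12, edgeR adjusted p = 0.000322). On MCD 5 rose and 6 fell with vehicle, 26.2% of the list beside 41.3% of all genes, and none was called for DTMB. The largest of these was Atf3, a stress-induced transcription factor, at 20.9 ± 10.5 CPM with MCD vehicle and 0.993 ± 0.300 CPM on normal diet (SD, n = 4 each; 4.39 ± 0.37, edgeR adjusted p = 5.16e-06). With library size alone 24 rose and 1 fell on MCD.

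Among 43 genes of cyclic AMP production, protein kinase A and cyclic AMP breakdown, none rose and 3 fell for DTMB against vehicle on HFD, with a list median of -0.12, and 2 rose and 8 fell for HFD vehicle against normal diet. Gnai1, an inhibitory G protein subunit, was at 1.87 ± 0.473 CPM with HFD vehicle, against 5.12 ± 0.569 CPM on normal diet (SD, n = 4 and 3; -1.45 ± 0.25, edgeR quasi-likelihood adjusted p = 0.00148). Pde4a, a cyclic AMP phosphodiesterase, was lower with DTMB on HFD (-1.10 ± 0.23, edgeR adjusted p = 0.0162). On MCD 12 of 44 rose and 9 fell with vehicle, among them Adcy6, a hepatocyte adenylyl cyclase (1.03 ± 0.14, edgeR adjusted p = 0.000197), and Pde4c (-1.86 ± 0.23, edgeR adjusted p = 7.56e-05). The shares called were 6.98% for DTMB on HFD, 23.3% with HFD vehicle and 47.7% with MCD vehicle. All genes gave 12.7%, 27.8% and 41.3%. Library size alone gave 24 higher and 2 lower on MCD.

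Of 31 genes of the Rap switch, the GTPases that Epac2 loads with their other exchange factors, GTPase-activating proteins and effectors, none rose and 2 fell for DTMB against vehicle on HFD, with a list median of -0.18, and 7 rose and 2 fell for HFD vehicle against normal diet. Rasgrp2, an exchange factor gated by calcium and diacylglycerol, had 9.76 ± 0.789 CPM with HFD vehicle and 4.98 ± 0.743 CPM on normal diet (SD, n = 4 and 3; 0.97 ± 0.15, edgeR quasi-likelihood adjusted p = 0.000752), and with DTMB on HFD it was -0.084 ± 0.13 from vehicle (edgeR adjusted p = 0.712). On MCD 8 rose and 7 fell with vehicle. Rap1gap2, which switches Rap1 off, was at 15.8 ± 1.56 CPM in MCD DTMB livers (SD, n = 3) and 13.3 ± 3.04 CPM in MCD vehicle livers, against 0.306 ± 0.11 CPM on normal diet (SD, n = 4 each; 5.42 ± 0.25 for vehicle, edgeR adjusted p = 1.54e-07). The shares called were 6.45% for DTMB on HFD, 29% with HFD vehicle and 48.4% with MCD vehicle. All genes gave 12.7%, 27.8% and 41.3%. Library size alone gave 17 higher and 2 lower on MCD.

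The BRAF and ERK cascade, which acts on the human Fam129b protein, gave 4 higher and 4 lower of 40 for DTMB against vehicle on HFD and 4 higher and 9 lower for HFD vehicle against normal diet. Spry4, a feedback inhibitor of the cascade, had 9.25 ± 2.18 CPM with DTMB and 3.25 ± 0.401 CPM with vehicle on HFD (SD, n = 4 each; 1.51 ± 0.18, edgeR quasi-likelihood adjusted p = 0.00410). Braf itself was lower with HFD vehicle (-0.59 ± 0.088, edgeR adjusted p = 0.000554). On MCD 13 of 41 rose and 6 fell with vehicle. Ccnd1, the cyclin D1 gene, was at 300.3 ± 104 CPM with MCD vehicle, against 36.5 ± 6.95 CPM on normal diet, and Egfr at 82.7 ± 21.0 CPM, against 488 ± 214 CPM (SD, n = 4 each; edgeR adjusted p = 7.74e-06 and 0.000101). The shares called were 20% for DTMB on HFD, 32.5% with HFD vehicle and 46.3% with MCD vehicle. All genes gave 12.7%, 27.8% and 41.3%. Library size alone gave 30 higher and 2 lower on MCD, and 2 higher and 8 lower for DTMB on HFD.

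Of 20 adherens junction and keratin genes, none rose and 3 fell for DTMB against vehicle on HFD, namely Dsp (-0.64 ± 0.081), Vcl (-0.57 ± 0.096) and Ctnna1 (-0.34 ± 0.080), which encode desmoplakin, vinculin and alpha-catenin (edgeR quasi-likelihood adjusted p = 0.00523, 0.00987 and 0.0215). The call for Ctnna1 was lost without HFD vehicle replicate 1 or 4 or HFD DTMB replicate 3 or 4 (edgeR adjusted p of up to 0.0609). With HFD vehicle 2 rose and 3 fell. On MCD 4 rose and 4 fell with vehicle, among them Cdh1, the E-cadherin gene (-1.32 ± 0.20, edgeR adjusted p = 0.000339), and Krt23 (3.28 ± 0.51, edgeR adjusted p = 0.00039). The shares called were 15% for DTMB on HFD, 25% with HFD vehicle and 40% with MCD vehicle. All genes gave 12.7%, 27.8% and 41.3%. Library size alone gave 10 higher and 2 lower on MCD and 10 lower for DTMB on HFD.

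For DTMB against vehicle on HFD the shares of the 6 lists called in either direction ran from 6.45% to 20%, around the 12.7% of all genes. The calls of the junction list there were all lower, 15% of the list beside 6.04% of all genes called lower. With HFD vehicle the shares of the 6 lists ran from 23.3% to 32.5%, around 27.8%, and with MCD vehicle from 26.2% to 48.4%, around 41.3%. No gene of any of the 6 lists was called by edgeR for DTMB on MCD, where 1 of all 16037 genes was. The list counts with library size alone stand beside a shift of all genes. With MCD vehicle 7683 of all genes were then called higher and 1170 lower. For DTMB against vehicle on HFD 406 were called higher and 2393 lower.

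The list counts of the HFD cohort changed when 1 library was left out. For DTMB against vehicle, the number of genes called was 3 to 9 among ASK1 regulators, 0 to 6 in the JNK and p38 list, 1 to 8 in the cyclic AMP list, 1 to 6 in the Rap list, 3 to 8 in the BRAF and ERK list and 2 to 5 in the junction list. The JNK and p38 list had no call without HFD vehicle replicate 1 or HFD DTMB replicate 3 or 4. The cyclic AMP and Rap lists had most calls without HFD vehicle replicate 3. For HFD vehicle against normal diet the Rap list had 4 to 6 calls whichever library was left out, against 9 with all libraries, and the junction list had 3 to 5. The ASK1 list gave 7 to 12 calls in that comparison, the JNK and p38 list 7 to 12, the cyclic AMP list 8 to 13 and the BRAF and ERK list 8 to 12. Without the libraries that carried acinar transcripts, edgeR called no gene at all for DTMB against vehicle on HFD, with 2182 genes at an unadjusted p under 0.05, and the cause was not tested. Over all genes, leaving out single libraries gave 483 to 2562 called genes, the fewest without HFD vehicle replicate 1.

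**Figure D4:**
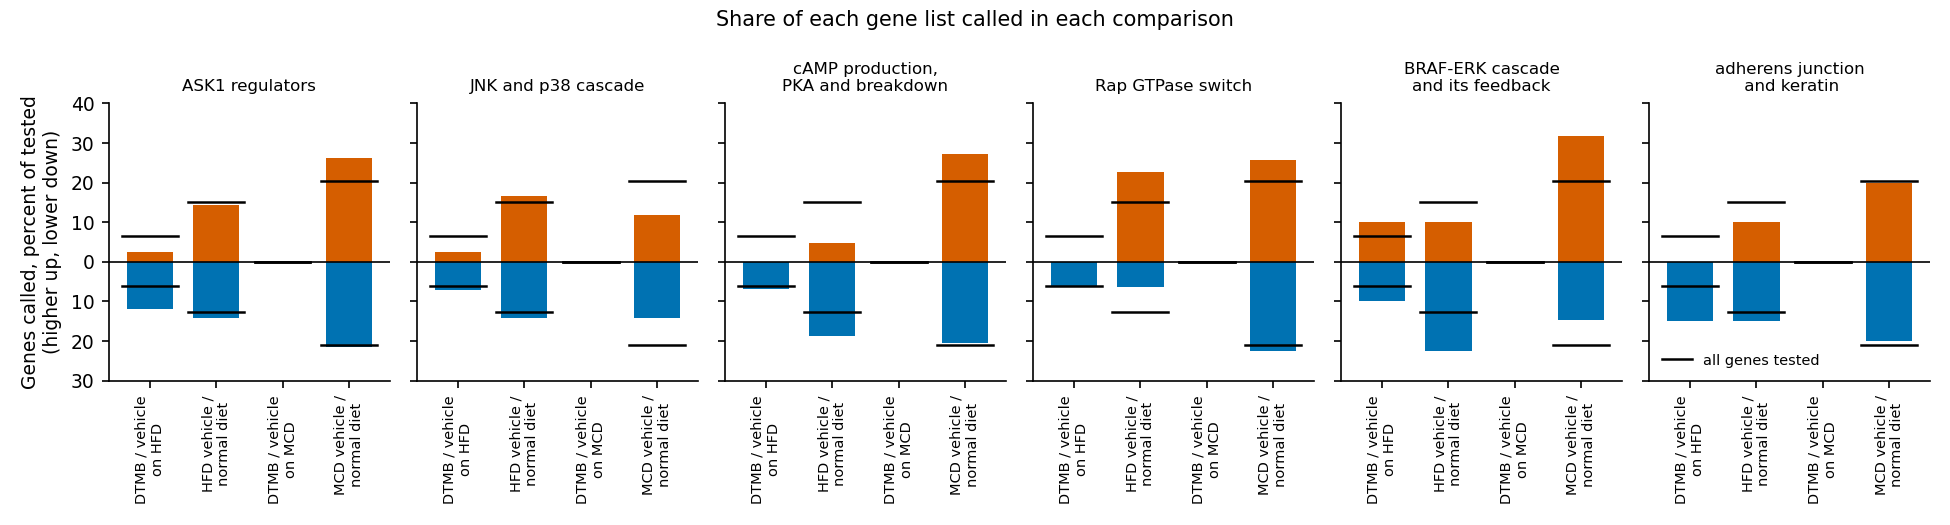
Share of each gene list called higher (orange, upward) and lower (blue, downward) in 4 comparisons, in percent of the genes tested, with black lines for the share of all genes tested. For DTMB against vehicle on HFD the bars reach 15% lower at most (adherens junction and keratin), and for DTMB against vehicle on MCD no list has a called gene.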

How the data were processed

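Unnormalized whole-number counts of reads for each gene were deposited by the authors in 1 table per cohort, and 0 sample columns were left unused. The genome build mm10 and the tools HISAT2 2.1.0, Trimmomatic 0.38, StringTie 2.1.3b and FastQC 0.11.7 are named, without roles or settings, in the submitters' processing notes. Per the labels' protocols, polyA RNA with an integrity number above 7 went into a stranded kit. Totals were 50.1 to 66.7 M counts.

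Separate models for the cohorts, each over 3 groups, were fitted in edgeR 4.0.16 (R 4.3.3) after filterByExpr and TMM scaling, with dispersions from estimateDisp, quasi-likelihood F tests, Benjamini-Hochberg adjustment over all genes tested and calls at 0.05. All 3 members passed the filter in both cohorts. SE is the log2 fold change over the square root of F. Within-group correlations used 100000 permutations within groups. Gene names come from the tables, and 45679 of 45777 IDs matched RefSeq. The procedure was tested on simulated data. Samples were grouped by title. Alternatives used DESeq2 1.42.0, limma 3.58.1, other scalings, filters and sample sets. Same-numbered livers deviated together with an r between -0.534 and 0.490 on the HFD side and between -0.406 and 0.121 on the MCD side, so numbers were not taken as pairs. Every pair of replicates differed by more than sampling noise. Intervals rest on the spread between replicates.

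The members and the 20 gene lists (372 entries) were chosen with earlier results of these data known. Named were the 3 members, their paralogues, up to 3 called genes of smallest p per list and comparison, and the 3 genes most like each member (mean CPM of at least 1, prior count 2, no predicted or clone names). Wwtr1, Endod1, Lrsam1, LOC108168464 and single list genes set beside another comparison were named after their values were seen.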

Additional observations from a re-analysis of the deposited data

Results flagged for a closer look

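In HFD vehicle livers, Rapgef4 was lower in replicate 1 (71.97 CPM) than in the other 3, which lay within 85.5 to 86.7 CPM. In MCD vehicle livers, Fam129b was higher in replicate 2 (23.7 CPM) than in the other 3, which lay within 12.2 to 13.5 CPM. Both were picked out by the gap between 1 liver and the rest of its group of 4, which chance produces in about 1 of 20 groups. HFD vehicle replicate 1 is among the libraries with acinar transcripts, and MCD vehicle replicate 2 is the liver with the highest macrophage, stellate and cholangiocyte marker sums. That liver also had the highest sums for immediate-early genes (495 CPM) and neutrophil markers (6.40 CPM). The part of any of these in the values of the 2 genes was not tested.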

How the results depend on the processing

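All values are log2 fold changes unless named otherwise, and where no cause is given the cause was not tested. In the HFD cohort each of the 3 genes kept its direction in every comparison under each setting tried. With library size alone Map3k5 moved to 0.61 for DTMB against vehicle on HFD and to -0.89 for HFD vehicle against normal diet, and Rapgef4 to -0.93 for that same diet comparison, as all genes shifted; without the acinar libraries Fam129b moved to 1.14 there. In the MCD cohort the value of Map3k5 for vehicle against normal diet, near 0, turned to 0.028 with DESeq2 and with RLE factors, 0.019 with no filter, 0.021 with over 1 CPM in 3 libraries, 0.0017 with the 2 groups compared alone, 0.0097 with the replicate block, 0.081 without the acinar library, 0.012 with all 22 libraries in 1 fit and 0.48 with library size alone. Library size alone also turned Map3k5 for DTMB against vehicle on MCD to -0.029 and Rapgef4 to 0.13 for MCD vehicle and 0.012 for DTMB, each against normal diet, and gave a call to Map3k5 for DTMB on MCD against normal diet (0.45). Rapgef4 for DTMB against vehicle on MCD turned to 0.17 with limma-voom and to 0.035 with the replicate block. Fam129b lost its call for DTMB on MCD against normal diet with RLE factors (0.713), no filter (0.712), the replicate block (0.67) and without the acinar library (0.63).

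The replicate numbers were not taken to pair the livers. The replicate block moved the genes called for DTMB against vehicle on HFD to 1225, from 1978 without it. That count was 3028 with DESeq2, 542 with all 22 libraries in 1 fit and 0 without the acinar libraries. HFD vehicle against normal diet without those libraries gave 655 genes and DTMB on HFD against normal diet 1022. For DTMB against vehicle on MCD, DESeq2 called 14, and 0 were called with limma-voom, no filter, over 1 CPM in 3 libraries, the 2 groups compared alone, the replicate block, without the acinar library and with all 22 libraries. With library size alone, calls split into 406 higher and 2393 lower for DTMB against vehicle on HFD (1036 and 942 with TMM), 3361 and 1030 for HFD vehicle against normal diet (2374 and 1958), 7683 and 1170 for MCD vehicle against normal diet (3253 and 3373) and 5803 and 1097 for DTMB on MCD against normal diet (2595 and 2635). The within-group correlation in the HFD cohort alone was -0.753 for Map3k5 and Fam129b and -0.366 for Rapgef4 and Fam129b, of opposite sign to that over 22 livers.

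Leaving out each liver in turn gave, for Map3k5, 0.72 to 0.82 for DTMB against vehicle on HFD, -1.07 to -0.98 for HFD vehicle and -0.30 to -0.20 for DTMB on HFD against normal diet, 0.0047 to 0.14 for DTMB against vehicle on MCD, -0.14 to 0.088 for MCD vehicle and -0.066 to 0.16 for DTMB on MCD against normal diet. In the same order Rapgef4 gave 0.64 to 0.81, -1.08 to -0.998, -0.42 to -0.25, -0.10 to 0.11, -0.46 to -0.22 and -0.48 to -0.24. Fam129b gave -1.16 to -0.97, 1.37 to 1.57, 0.31 to 0.51, -1.20 to -0.77, 1.46 to 1.88 and 0.55 to 0.83. Genes called were 483 to 2562, 3090 to 4376, 3154 to 4514, 0 to 0, 5600 to 6550 and 3761 to 4720. The fewest, 483, came without HFD vehicle replicate 1, and the count was 903 and 656 without vehicle replicates 2 and 4, and 957, 797 and 537 without DTMB replicates 2, 3 and 4.

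Of the paralogues, Map3k15 for MCD vehicle against normal diet turned to 0.40 and Rapgef3 for DTMB against vehicle on HFD to -0.036 with library size alone, and Fam129c for MCD vehicle against normal diet to 0.068 with it and to 0.22 with limma-voom. Leaving out livers turned Map3k6 (-0.92 to 0.10), Map3k15 (-0.10 to 0.16) and Fam129a (-0.26 to 0.24) for DTMB on HFD against normal diet, Rapgef3 for DTMB against vehicle on HFD (-0.024 to 0.32), Map3k15 for MCD vehicle against normal diet (-0.18 to 0.25) and for DTMB against vehicle on MCD (-0.0051 to 0.28), and Map3k15 (-0.041 to 0.42) and Rapgef3 (-0.055 to 0.23) for DTMB on MCD against normal diet. Of 1154 other values for single genes, 1083 kept their side of the threshold and 56 lost a call, 41 of those without the acinar libraries. Depth limits Fam129b, with as few as 154 counts, and Fam129c, with at most 20.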
